A study of Brassica juncea with 2 samples.

Results

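Transcripts of the Calvin cycle and of photorespiration were described in seedlings of Indian mustard (*Brassica juncea* var. CS52) by RNA-seq. They were taken by words in the deposited annotation (ribulose, Rubisco, phosphoribulokinase, sedoheptulose, transketolase, glyceraldehyde, phosphoglycerate kinase, glycolate, glycine decarboxylase, hydroxymethyltransferase, hydroxypyruvate), which 57 of 47513 unigenes (assembled transcripts) carried. The SS library came from seedlings 2 weeks old after 24 h in 200 mM salt, and the CTRL library from seedlings of the same age kept in water and collected at the same time. All plants were of this salt-tolerant variety, with wild type given for CTRL and no other genotype named, and grew hydroponically with a daily light and dark period. Each group is 1 library made from about 10 pooled seedlings, so differences could not be checked against replicates, and no test across samples was made. In such pooled tissue, fewer green cells and less RNA per green cell cannot be told apart.

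In the Calvin cycle, Rubisco binds carbon dioxide to ribulose bisphosphate, the product is reduced to triose phosphates with energy from the light reactions, and the remaining enzymes rebuild the acceptor. When Rubisco takes oxygen instead, it makes phosphoglycolate, which photorespiration turns back into glycerate through chloroplasts, peroxisomes and mitochondria, releasing carbon dioxide and ammonia on the way. Both pathways run in green tissue. Salt stress closes stomata, which lowers the carbon dioxide supply to Rubisco and favours the reaction with oxygen.

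Levels are given in RPKM (high-quality reads scaled by unigene length and by library size). Reads mapped to unigenes numbered 73982305 in SS and 77864191 in CTRL. A read on a unigene of 1000 bp was worth 0.0111 RPKM in SS and 0.0105 RPKM in CTRL. Differences are log2 ratios of SS over CTRL with 0.1 RPKM added to both values, for unigenes that reach 1 RPKM in SS or in CTRL, and ratios without log2 carry no addition. Bracketed intervals are 95% Clopper-Pearson intervals on the reads, which cover counting error only: PCR copies are not independent molecules, and the spread between seedling pools is not in them. Green tissue was plainly present, with 47 light-harvesting and photosystem unigenes summing to 73926 RPKM in SS and 86789 RPKM in CTRL and 0 of them at 0. Root markers (23 unigenes) summed to 77.5 RPKM in SS and 68.4 RPKM in CTRL, and seed markers (19 unigenes, mostly of the wide lipid-transfer protein and albumin superfamily) to 150 RPKM in SS and 171 RPKM in CTRL, with 0 of either list at 0. These sums hide differences in both directions. Of the 18 root markers that reach 1 RPKM, 4 were at least 2-fold higher in SS (22.2%) and 1 was lower. Of the 19 seed markers, 1 was higher and 5 were lower (26.3%). Among all unigenes 1.91% were higher and 4.21% lower. Highest among root markers were unigenes annotated as root hair defective 3 and root hairless 1, and whether these mark root tissue was not tested. The part of tissue composition in the results was not tested.

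All 57 unigenes passed the minimum of 1 RPKM, and they spanned a wide range of levels, between 0.604 and 6224 RPKM in SS and between 1.08 and 5556 RPKM in CTRL. None of them differed by 2-fold or more in either direction, whereas of 43250 unigenes 1.91% reached this size upward in SS and 4.21% downward. Of the 57, 35 had a log2 ratio above 0 (61.4%), against 42.6% of all unigenes. Their median log2 ratio was 0.10, with quartiles at -0.21 and 0.28, and the median over all 43250 unigenes was -0.06, with quartiles at -0.33 and 0.16. The counting interval of the ratio lay above 1 for 31 of the 57 (54.4%) and below 1 for 12 (21.1%), against 20.7% and 31.8% of all unigenes. Together the 57 unigenes took 4.30% of the reads on unigenes in SS and 3.79% in CTRL, and their summed reads, corrected for depth, were 1.14 times as high in SS (1.136 to 1.140).

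Members of high level differed little and in 1 direction, while those of lower level went both ways. Of the 57, 17 averaged at least 100 RPKM over both libraries, and all 17 were higher in SS, with log2 ratios between 0.03 and 0.55 and a median of 0.21. Of all 733 unigenes at that level, 433 (59.1%) had a log2 ratio above 0, and their median was 0.06. All 17 intervals lay above 1, but with so many reads most intervals leave out 1: they lay above 1 for 54.7% of the 733 and below 1 for 37.4%. The 40 members of lower level had a median of -0.02, with 18 above 0, 14 intervals above 1 and 12 below 1. Over the 57 unigenes the log2 ratio went with the CTRL level (Spearman's rho 0.48), whereas over all unigenes rho was 0.02. The CTRL value enters both axes, unigenes of one gene may share reads, and no p-value is attached.

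**Figure D1:**
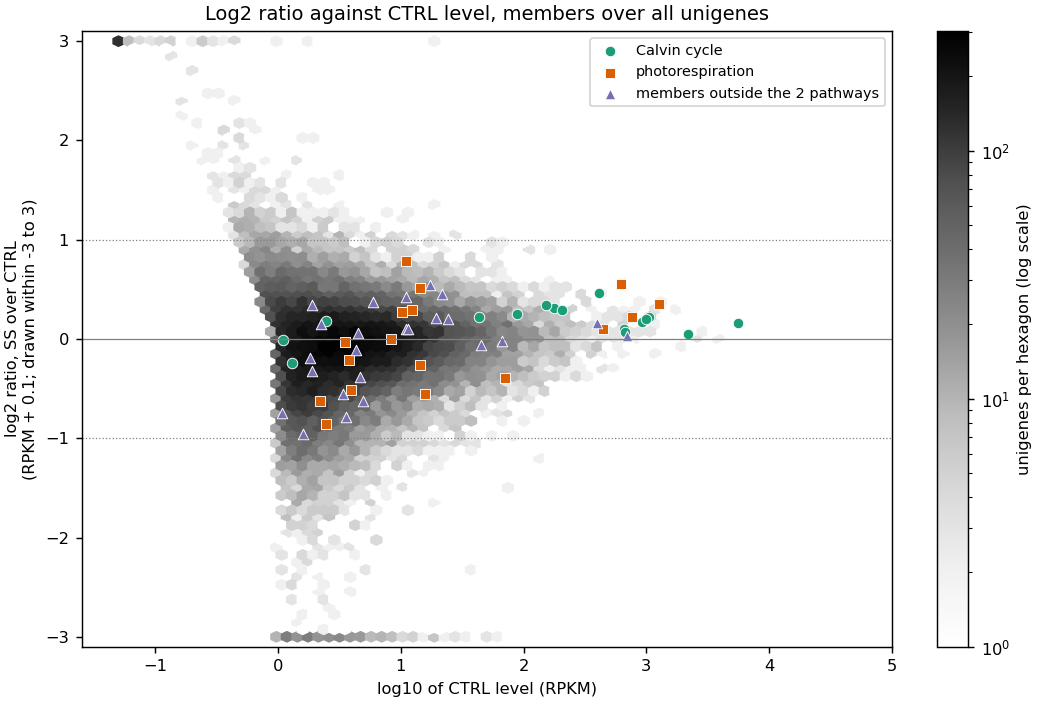
Log2 ratio of SS over CTRL (RPKM plus 0.1, drawn within -3 to 3) against the log10 CTRL level in RPKM. All unigenes are grey hexagons shaded by their number. The 57 members are coloured points: circles for the Calvin cycle, squares for enzyme names of photorespiration, triangles for the remaining members. Every member lies between the dotted lines at 2-fold, and the 17 members that average at least 100 RPKM all lie above 0.

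Of the Calvin cycle, 16 unigenes of 7 enzymes were members, Rubisco activase included. Rubisco itself was not among them, since no unigene with a Rubisco subunit in its annotation was found by the words used. The 16 unigenes summed to 14718 RPKM in SS and 13129 RPKM in CTRL, their median log2 ratio was 0.19, and 14 of 16 were above 0 (87.5%, against 42.6% of all unigenes). The intervals of 13 lay above 1, and that of none below 1. Intervals lay above 1 for 20.7% and below 1 for 31.8% of all unigenes. For the 733 unigenes that average at least 100 RPKM these shares were 54.7% and 37.4%. Reads of the 16 unigenes were 3.04% of all reads on unigenes in SS and 2.73% in CTRL, a ratio of 1.12 (1.115 to 1.119).

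Rubisco activase, the ATPase that frees Rubisco from inhibitory sugar phosphates, was the most abundant member. Its unigene R_26180 (1778 bp, *B. rapa* gene Bra000144) had 6224 RPKM in SS and 5556 RPKM in CTRL, from 993234 and 936436 reads, a log2 ratio of 0.16. This unigene was number 6 in SS and number 7 in CTRL among all unigenes ordered by level, and 24.9% of all unigenes had a log2 ratio at least as high, so the difference is a usual one in size although its counting interval is narrow (1.117 to 1.124).

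The reduction phase uses phosphoglycerate kinase, which spends ATP on phosphoglycerate, and the chloroplast glyceraldehyde phosphate dehydrogenase (GAPDH), which spends NADPH on its product. Phosphoglycerate kinase 1 (R_26818) had 1233 RPKM in SS and 1059 RPKM in CTRL, a log2 ratio of 0.22. A unigene annotated as phosphoglycerate kinase with no number (R_21955) had 105 RPKM in SS and 88.1 RPKM in CTRL, a log2 ratio of 0.25. It was counted to the Calvin cycle by enzyme name, and whether it is the chloroplast form or that of glycolysis was not tested. The A subunit of the dehydrogenase (R_24441) had 2261 RPKM in SS and 2180 RPKM in CTRL, a log2 ratio of 0.05. Its B subunit (R_26030), which carries the regulatory tail of the enzyme, had 1048 RPKM in SS and 928 RPKM in CTRL, a log2 ratio of 0.17. The ratio of the B subunit (1.121 to 1.136) was thus above that of the A subunit (1.032 to 1.042) by more than counting error.

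Among the enzymes that rebuild the acceptor, ribulose-phosphate epimerase stood highest in ratio. This enzyme converts xylulose phosphate to ribulose phosphate and serves the pentose phosphate pathway as well. Its unigene R_22991 had 566 RPKM in SS and 410 RPKM in CTRL, a log2 ratio of 0.47 and a ratio of 1.38 (1.37 to 1.40), and 8.27% of all unigenes had a log2 ratio at least as high. The other unigenes of the epimerase, R_21764 and R_21608, had log2 ratios of 0.31 and 0.34. R_21764 had 220 RPKM in SS and 178 RPKM in CTRL, and R_21608 had 193 RPKM in SS and 153 RPKM in CTRL. All 3 unigenes, which match 2 *B. rapa* genes, were thus higher in SS, and their summed reads gave a ratio of 1.33 (1.31 to 1.34).

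Phosphoribulokinase, the light-regulated enzyme that completes the cycle by phosphorylating ribulose phosphate, had 1154 RPKM in SS and 1001 RPKM in CTRL (R_24909), a log2 ratio of 0.21. Sedoheptulose-bisphosphatase, which makes a committed step of the regeneration phase, had 703 RPKM in SS and 655 RPKM in CTRL on its longer unigene (R_25028, 1620 bp), a log2 ratio of 0.10. A fragment of 304 bp with the same annotation (R_215) had 252 RPKM in SS and 206 RPKM in CTRL, a log2 ratio of 0.29. Transketolase, which moves 2-carbon units between sugar phosphates, had 703 RPKM in SS and 668 RPKM in CTRL (R_29096), a log2 ratio of 0.07. The remaining 3 transketolase unigenes had 1.07 to 2.78 RPKM in SS and 1.10 to 2.45 RPKM in CTRL, and the counting interval of each included 1. For transketolase the abundant unigene carried nearly all of the signal. For sedoheptulose-bisphosphatase the longer unigene carried most of the reads, with 102155 in SS and 100646 in CTRL. The fragment held 6887 reads in SS and 5933 in CTRL, and had the larger ratio.

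**Figure D2:**
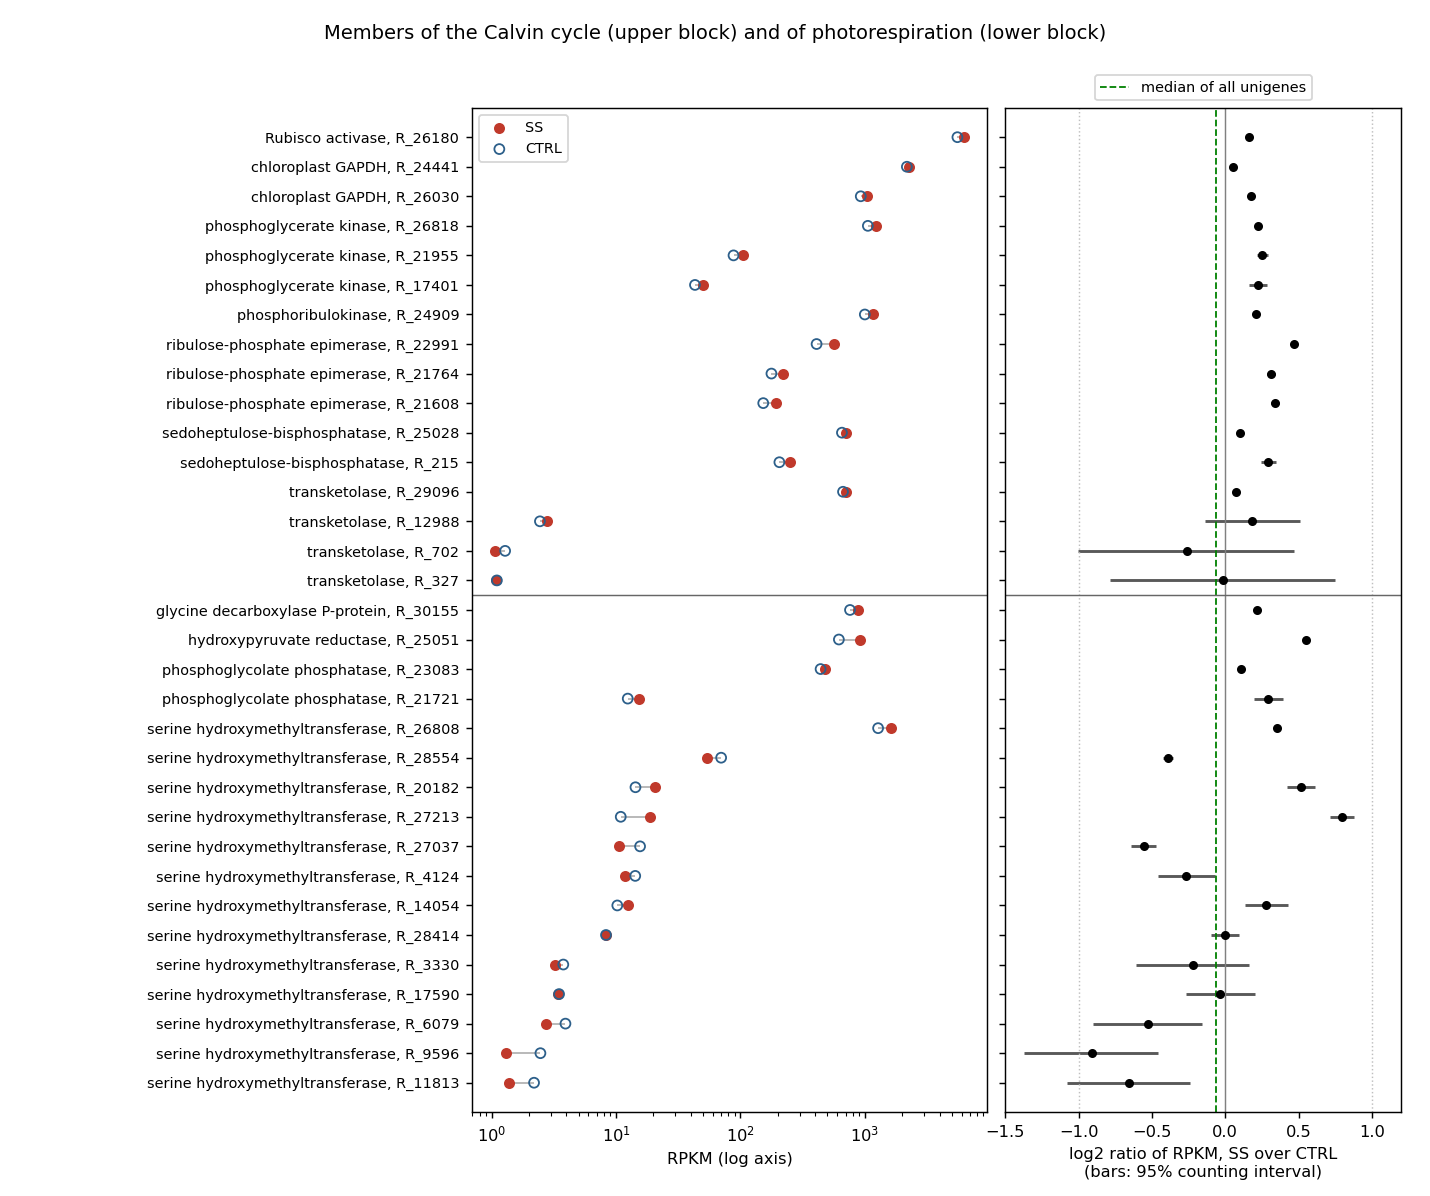
Level in RPKM on a log axis (left; filled red, SS; open blue, CTRL) and log2 ratio of RPKM, SS over CTRL, with no value added and with its 95% counting interval (right), for the 16 Calvin cycle unigenes above the line and the 17 unigenes of photorespiratory enzyme names under it, 9 of them serine hydroxymethyltransferase forms outside the pathway. The green dashed line marks the median of all unigenes (-0.06) and the dotted lines 2-fold. Ratios of the Calvin cycle cluster just above 0, and those of serine hydroxymethyltransferase spread to both sides.

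Enzyme names of photorespiration were carried by 17 unigenes, but 9 of these are serine hydroxymethyltransferase forms 3, 4, 6 and 7, which are not the mitochondrial forms of the pathway. The 8 others, grouped after their values were seen, summed to 4000.5 RPKM in SS and 3208 RPKM in CTRL, and their summed reads were 1.23 times as high in SS (1.226 to 1.234). These 8 still hold form 2 of phosphoglycolate phosphatase (R_21721, log2 ratio 0.29), kept by enzyme name although it lies outside the chloroplast in *Arabidopsis*. The median log2 ratio of the 8 was 0.28, and 7 of 8 were above 0 with intervals above 1, while the interval of R_28554 lay below 1. Intervals lay above 1 for 20.7% of all unigenes and for 54.7% of those that average at least 100 RPKM. The sum was carried by 4 unigenes with at least 100 RPKM in both libraries. With the 9 further forms included, the median over the 17 was -0.00 and 8 of 17 were above 0.

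Hydroxypyruvate reductase, the peroxisomal enzyme that makes glycerate from hydroxypyruvate, had the largest ratio of the abundant members. R_25051 (1622 bp, Bra004055) had 908 RPKM in SS and 619 RPKM in CTRL, from 132113 and 95215 reads. The log2 ratio was 0.55 and the ratio 1.47 (1.45 to 1.48). Of the 733 unigenes that average at least 100 RPKM, 5.05% had a log2 ratio at least as high, so it stood high among abundant transcripts without being rare there.

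Phosphoglycolate phosphatase, the entry enzyme of the pathway, had 475 RPKM in SS and 441 RPKM in CTRL in its form 1 (R_23083), which is the chloroplast form in *Arabidopsis*, a log2 ratio of 0.10. Form 2 (R_21721), outside the chloroplast in *Arabidopsis*, had 15.2 RPKM in SS and 12.4 RPKM in CTRL, a log2 ratio of 0.29. The P-protein of glycine decarboxylase, which takes the carboxyl group off glycine in mitochondria, had 885 RPKM in SS and 761 RPKM in CTRL (R_30155, the longest member at 3471 bp), a log2 ratio of 0.22. All 3 intervals lay above 1, with the largest difference at the form of low level.

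Serine hydroxymethyltransferase, which joins the methylene group from glycine to another glycine to form serine, had 13 unigenes. In *Arabidopsis* forms 1 and 2 are mitochondrial and belong to photorespiration, form 3 is in plastids and form 4 in the cytosol, so only the unigenes of form 2 were counted to the pathway. The 4 unigenes of form 2, which all match Bra016147, summed to 1718 RPKM in SS and 1374 RPKM in CTRL. The abundant one (R_26808, 1875 bp) had 1632 RPKM in SS and 1280 RPKM in CTRL, a log2 ratio of 0.35 and a ratio of 1.28 (1.27 to 1.28). The unigene next in level (R_28554, 2328 bp) went the other way, with 53.4 RPKM in SS and 70.1 RPKM in CTRL, a log2 ratio of -0.39 and a ratio of 0.762 (0.744 to 0.781). R_20182 had 20.5 RPKM in SS and 14.3 RPKM in CTRL, a log2 ratio of 0.51. R_14054 had 12.4 RPKM in SS and 10.2 RPKM in CTRL, a log2 ratio of 0.28. The last 3 were singled out after their values were seen. Unigenes that match 1 *B. rapa* gene thus differed in direction by more than counting error, and which of them are gene copies, isoforms or fragments was not tested.

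The 9 unigenes of other forms were low in both libraries, with a median log2 ratio of -0.26. Of the 9, 1 was above 0 (11.1%, against 42.6% of all unigenes). Form 7 (R_27213, 1955 bp) had 18.9 RPKM in SS and 10.9 RPKM in CTRL, from 3322 and 2024 reads, and its log2 ratio of 0.79, a ratio of 1.73 (1.64 to 1.83), was the highest of the 57. It was also the only member at least 1.5-fold higher in SS, a size reached by 5.61% of all unigenes, while 6 members were lower by this factor, against 12.3% of all unigenes, each of them under 10 RPKM in both libraries. Form 3 (R_27037) went the other way, with 10.6 RPKM in SS and 15.6 RPKM in CTRL, a log2 ratio of -0.55 and a ratio of 0.681 (0.642 to 0.722). Form 4 (R_4124) had 11.9 RPKM in SS and 14.3 RPKM in CTRL, a log2 ratio of -0.26. Form 6 had 5 unigenes with 1.31 to 8.29 RPKM in SS and 2.19 to 8.31 RPKM in CTRL, and log2 ratios between -0.86 and -0.00, of which 3 intervals lay below 1 and the other 2 included 1. The most abundant of these (R_28414) had 8.29 RPKM in SS and 8.31 RPKM in CTRL. Over the 13 unigenes of the enzyme, 4 intervals lay above 1 (30.8%) and 6 below 1 (46.2%), against 20.7% and 31.8% of all unigenes. Their summed reads were 1.24 times as high in SS because 1 unigene held most of them.

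Besides the 9 unigenes of other serine hydroxymethyltransferase forms, the words took in 24 that were counted to neither pathway by enzyme name. These 24 had a median log2 ratio of 0.05, with 13 of 24 above 0 (54.2%, against 42.6% of all unigenes). Cytosolic GAPDH of glycolysis (subunit C1, R_24874) had 719 RPKM in SS and 703 RPKM in CTRL, a log2 ratio of 0.03, the smallest of the 17 members that average at least 100 RPKM. GAPDH of plastid glycolysis (form 1 of plastids) had 3 unigenes, of which R_9205, a fragment of 519 bp, had 442 RPKM in SS and 395 RPKM in CTRL, a log2 ratio of 0.16. The study's list of highly expressed transcripts ties R_9205 to the chloroplast A subunit instead, so which enzyme it represents is not settled. The other unigenes of this annotation had 2.29 and 3.18 RPKM in SS and 3.40 and 4.95 RPKM in CTRL, with both intervals below 1. The 4 unigenes of a GAPDH-like family were all above 0, against 42.6% of all unigenes. Intervals of 3 lay above 1, against 20.7% of all unigenes, and that of R_22088 (0.997 to 1.159) included 1. Highest in level was R_23388 with 29.6 RPKM in SS and 21.5 RPKM in CTRL, a log2 ratio of 0.46.

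Families named after the pathway enzymes were lower in level. The phosphoribulokinase and uridine kinase family, whose members share a kinase domain with phosphoribulokinase, had 10 unigenes with 0.604 to 7.70 RPKM in SS and 1.08 to 5.93 RPKM in CTRL. Their median log2 ratio was -0.26, with a range from -0.95 (23 reads in SS and 50 in CTRL) to 0.37 for the most abundant one, R_20987. The summed reads of this family gave a ratio of 0.980 (0.928 to 1.035), which does not differ from 1 by more than counting error. Of the 10, 6 match 1 *B. rapa* gene, Bra012464, and 2 of these had log2 ratios above 0. The Rubisco methyltransferase family, protein methyltransferases related to the enzyme that modifies Rubisco, had 4 unigenes, of which R_27127 had 65.8 RPKM in SS and 66.8 RPKM in CTRL, a log2 ratio of -0.02, and the other 3 had intervals above 1. A unigene of the transketolase family (R_24215) had 43.3 RPKM in SS and 45.0 RPKM in CTRL, a log2 ratio of -0.06. Ureidoglycolate amidohydrolase, an enzyme of purine breakdown taken in by the letters of its name, had 22.3 RPKM in SS and 19.3 RPKM in CTRL (R_25588), a log2 ratio of 0.21.

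Remaining enzymes of both pathways and names linked to them were taken from a second list of annotation words. It held 66 further unigenes, of which 64 passed the minimum. This list is wider than the pathways: among the 64 were 15 carbonic anhydrase unigenes of several families and 17 of the aldolase-type TIM barrel family. None was higher by 2-fold, 3 were lower by 2-fold or more, and the median log2 ratio was 0.03. The 3 are 4.69% of the 64, close to the 4.21% of all unigenes, and 37 of 64 (57.8%) were above 0, against 42.6% of all unigenes. Those 3 were R_14568 and R_1178, both annotated as alanine:glyoxylate aminotransferase 3, and R_4089 of the aldolase-type TIM barrel family, with 3.69, 1.47 and 0.743 RPKM in SS and 7.85, 5.49 and 1.97 RPKM in CTRL. All 3 were low in level, and whether they belong to either pathway was not tested. The highest unigene of each annotation word gave log2 ratios on both sides of 0. Alanine:glyoxylate aminotransferase (R_24808), which in *Arabidopsis* peroxisomes mainly passes the amino group of serine to glyoxylate, had 2231 RPKM in SS and 1568 RPKM in CTRL, a log2 ratio of 0.51. Glutamate:glyoxylate aminotransferase (R_26466), which works beside it, had 610 RPKM in SS and 504 RPKM in CTRL, a log2 ratio of 0.28. Carbonic anhydrase 1, which interconverts carbon dioxide and bicarbonate, had 1719 RPKM in SS and 1343 RPKM in CTRL on R_12973, a log2 ratio of 0.36, but 82.4 RPKM in SS and 88.2 RPKM in CTRL on R_13005, a log2 ratio of -0.10. Triosephosphate isomerase (R_24016), CP12 (R_12158), which binds GAPDH and phosphoribulokinase in the dark, and lipoamide dehydrogenase (R_28661), a subunit of glycine decarboxylase, had log2 ratios of 0.27, 0.11 and 0.18. Those of the 2 annotations of ribose-phosphate isomerase were 0.04 (R_19313) and 0.09 (R_16564). Annotated fructose-bisphosphate aldolase (R_12125) had 234 RPKM in SS and 237 RPKM in CTRL, a log2 ratio of -0.02 with an interval that includes 1. The glycine cleavage T-protein family (R_24978) had 9.63 RPKM in SS and 10.8 RPKM in CTRL, a log2 ratio of -0.16 with an interval below 1. Of the chaperonin on which Rubisco folding depends, the alpha subunit (R_27626) had 110 RPKM in SS and 138 RPKM in CTRL, a log2 ratio of -0.33, and the beta subunit (R_29469) had 111 RPKM in SS and 109.5 RPKM in CTRL, a log2 ratio of 0.02 with an interval that includes 1.

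The unigene with the highest mean level was then set out for each of 25 enzymes and partner proteins in the order of the pathways. For 7 of the 25, the identity came from the study's list of highly expressed transcripts, because the deposited annotation names something else or nothing, and these 7 were chosen after their values were seen. The ratio was above 1 for 24 of 25, with a median of 1.13. Of all 733 unigenes that average at least 100 RPKM, as these 25 do, 59.1% had a log2 ratio above 0. For aldolase and the T-protein of glycine decarboxylase, the study's list supplied the unigene. Those named so by the deposited annotation (R_12125 and R_24978) had ratios of 0.988 and 0.895. The Rubisco small subunit (NR_17014), the highest of them in level, had 54432 RPKM in SS and 50474 RPKM in CTRL, a log2 ratio of 0.11, and took 6.51% of reads on unigenes in SS and 6.06% in CTRL. In the Calvin cycle all 14 ratios were above 1, between 1.03 for ribose-phosphate isomerase and 1.38 for the epimerase. In photorespiration 10 of 11 were above 1, with a median of 1.16, and the 3 highest were serine hydroxymethyltransferase, alanine:glyoxylate aminotransferase and hydroxypyruvate reductase. Glycerate kinase (R_24982), the last enzyme of the pathway, was the 1 below 1, with 117 RPKM in SS and 130 RPKM in CTRL, a ratio of 0.901 (0.883 to 0.920).

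**Figure D3:**
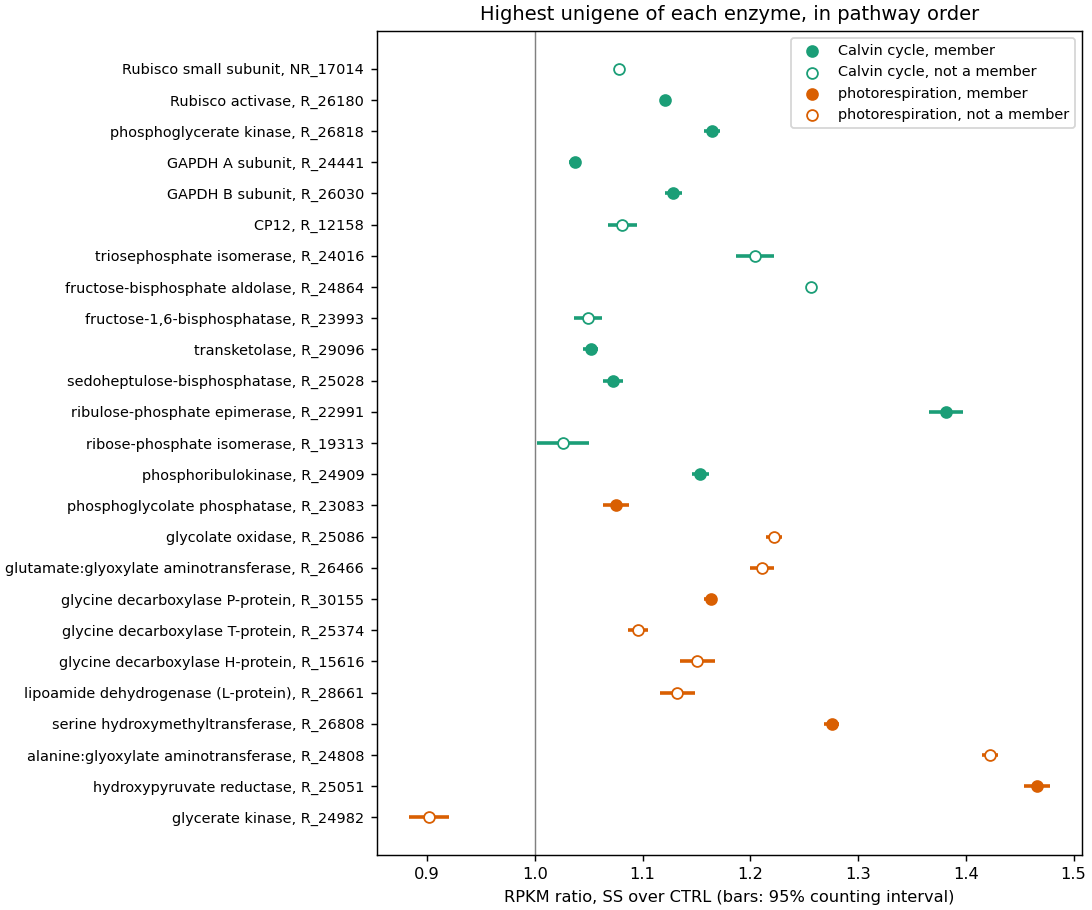
Ratio of RPKM, SS over CTRL, for the unigene with the highest mean level of each of 25 enzymes and partner proteins, in pathway order from top to bottom, with bars for the 95% counting interval. Green is the Calvin cycle and orange photorespiration; filled points are members, open ones come from the second list or the study's list. Ratios lie above 1 for 24 of 25, with hydroxypyruvate reductase highest at 1.47 and glycerate kinase lowest at 0.901. Of all 733 unigenes that average at least 100 RPKM, 59.1% had a log2 ratio above 0.

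Set beside other pathways of the seedling, the light reactions had the lower sum in SS, and carbon fixation the higher. The 49 unigenes of photosystems, light harvesting and electron carriers summed to 76421 RPKM in SS and 89194 RPKM in CTRL. Their summed reads gave a ratio of 0.880 (0.879 to 0.881), against 1.12 for the 16 Calvin cycle unigenes and 1.23 for the 8 unigenes grouped under photorespiration. Their median log2 ratio was -0.03, near that of all unigenes, with 22 of 49 above 0 (44.9%, against 42.6% of all unigenes) and 3 lower by 2-fold or more (6.12%, against 4.21%). Glycolysis and the citric acid cycle, over 71 unigenes, had a median of -0.05 and a summed read ratio of 1.06 (1.05 to 1.07). These are sums in 1 library per condition, in which a few abundant unigenes set the value, and the difference between the lists has no test across samples. Light-harvesting subunit B1 of photosystem II had 21396 RPKM in SS and 25598 RPKM in CTRL on R_20128. On R_9508 it had 7513 RPKM in SS and 12780 RPKM in CTRL. Subunit O-2 of photosystem II (R_22564) had 3955 RPKM in SS and 3881 RPKM in CTRL, so the lower sum does not describe every part of the light reactions.

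**Figure D4:**
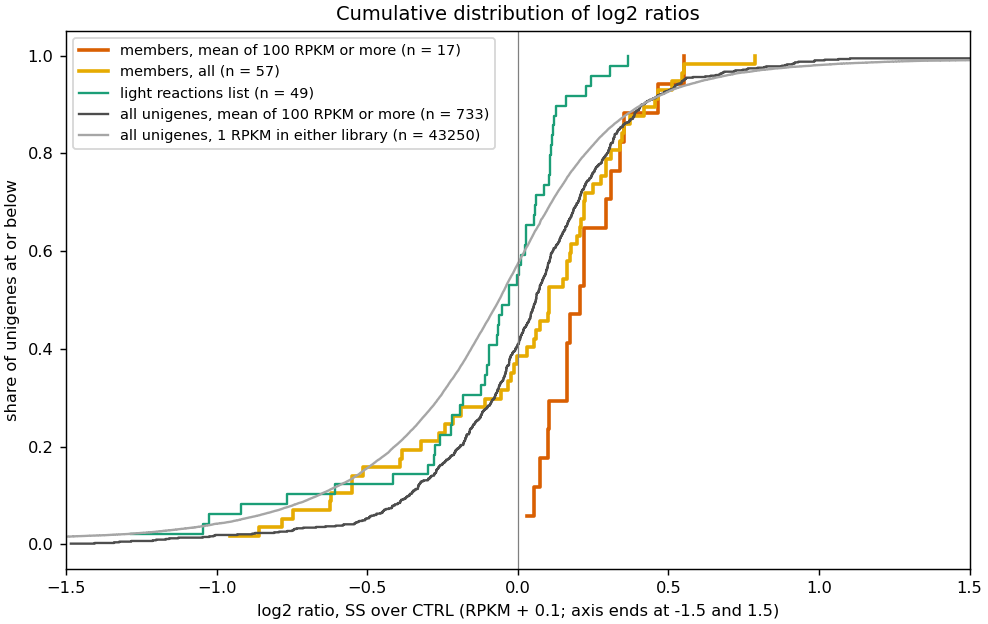
Cumulative share of unigenes at or below each log2 ratio of SS over CTRL (RPKM plus 0.1), for the 57 members, the 17 of them that average at least 100 RPKM, 49 unigenes of the light reactions, all 733 unigenes with such an average and all 43250 unigenes. The curve of the 17 members begins above 0, at 0.03, and its median of 0.21 lies to the right of that of all unigenes at the same level, 0.06.

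A limit on these values is that unigenes with the same match may share reads. The 57 members match 38 *B. rapa* genes, and 11 of these genes hold 30 of the members, so near-identical copies and the homeologs of the 2 parent genomes could split reads in the mapping. The values also rest on a correction for length, because the SS values were deposited without one. As deposited they gave log2 ratios that followed unigene length (Spearman's rho 0.92 over the 57) and put 19 members past 2-fold upward and 12 past it downward, with 2 of the 17 that average at least 100 RPKM (R_215 and R_9205) lower in SS, whereas after the correction rho with length was 0.36 and no member passed 2-fold.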

How the data were processed

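Reads of both libraries were assembled by the authors with Trinity after alignment to *B. rapa* with Tophat, clustered with CD-HIT-EST, and mapped back to the unigenes with BOWTIE2. The sources used here give no versions. The deposited CTRL values are RPKM, calculated by the authors with the length of each unigene. The deposited SS values are also named RPKM but are a signal proportional to reads: all 47505 lie within 0.01 read of whole multiples of 1 step (largest distance 0.000174 read), so every unigene was scaled as if it had the same length. The design took both as RPKM. Own lengths were therefore recovered from whole CTRL reads, using that unigenes are numbered by rising length in the rapa and in the non-rapa series. Within the bounds set by neighbouring unigenes, 1 length fitted 47388 of 47392 unigenes with CTRL reads, and each of the 57 members. Rising order was imposed in this fit, so the recovered lengths cannot serve as a check of that order. SS values were divided by these lengths. No genome was used, and genome positions were not analysed here.

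The members and gene lists were chosen with earlier results of these data known. Named members have at least 100 RPKM in either library, pass 2-fold, or have the highest mean RPKM of their annotation (28 of 57). Of the second list, those past 2-fold or highest for their annotation word were named. Any other unigene named in the text was chosen after its values were seen. Recovery and counting were checked on simulated data. Annotation was present for 1851 of 20137 non-rapa unigenes, and all 57 members are of the rapa series. Python 3.11.15, NumPy 2.4.6, pandas 2.3.3, SciPy 1.17.1 and Matplotlib 3.10.9 were used. Alternatives were pseudocounts of 0.01 and 1 RPKM, other minimum values, size factors, equal totals, centring and removal of a running trend over 500 unigenes.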

Additional observations from a re-analysis of the deposited data

How the results depend on the processing

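With 1 library per group no replicate could be left out. No paired analysis was possible because each group holds 1 library and no test was made. The median log2 ratio of the 57 members, 0.10, was 0.17 with size factors and 0.18 with a running trend over unigene number removed. It was 0.088 when centred on unigenes averaging 10 RPKM or more, and 0.21 with a minimum of 10 RPKM. Without the 24 unigenes counted to neither pathway it was 0.17. That set keeps the 9 unigenes of serine hydroxymethyltransferase forms 3, 4, 6 and 7. For members with at least 100 RPKM in either library or on average (both chosen after seeing the data) the median was 0.21. With SS values as deposited it was 0.82, with 19 members at least 2-fold higher and 12 lower, and 7033 higher and 9144 lower among all unigenes (828 and 1820 after the correction for length). A pseudocount of 0.01 RPKM put 1 member 2-fold lower (R_1721), and 1.5-fold in place of 2-fold, chosen after seeing the data, gave 1 higher and 6 lower. A pseudocount of 1 RPKM left 403 higher and 644 lower of all unigenes, and 0 members. The log2 ratio changed sign for R_27127 (1.17 as deposited, 0.043 with size factors, 0.050 without the trend), R_28414 (1.41, 0.062 and 0.083), R_24215 (0.78 as deposited, 0.0098 with size factors), R_215 (-1.19 as deposited), R_9205 (-0.55 as deposited) and R_27037 (0.62 as deposited). With size factors the summed read ratio was 1.03 for the phosphoribulokinase and uridine kinase family and 1.01 for the transketolase family. No other sign among the 28 named members changed. These settings left the counts of members past 2-fold at 0 unless a value is given. The lowest count of a member was 18 reads, which limits its ratio to a wide interval, and with 1 library per condition the intervals say nothing of the spread between pools.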

Other observations

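Among the 57 members, the log2 ratio also varied with unigene length. The 20 members under 1000 bp had a median of -0.23, with 6 above 0, and the 37 longer ones a median of 0.20, with 29 above 0. Over all unigenes the medians of the same length classes were -0.08 and -0.05, with 42.8% and 42.2% above 0. Short members were also the less abundant ones for the most part, and length and level were not told apart.

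Further unigenes without a matching deposited annotation were tied to enzymes of both pathways by the study's list of highly expressed transcripts, and were chosen after their values were seen. A second unigene of the Rubisco small subunit (NR_4938) had 8030 RPKM in SS and 6860 RPKM in CTRL, a log2 ratio of 0.23. Fructose-bisphosphate aldolase (R_24864), which the deposited annotation calls an ENTH/VHS family protein, had 3385 RPKM in SS and 2694 RPKM in CTRL, a log2 ratio of 0.33. Of 4 unigenes of glycolate oxidase, the peroxisomal enzyme that forms glyoxylate and hydrogen peroxide, NR_12262 had 1269 RPKM in SS and 930.1 RPKM in CTRL, a log2 ratio of 0.45, and NR_10047 had 721 RPKM in SS and 532 RPKM in CTRL, a log2 ratio of 0.44. The most abundant, R_25086, had 1560 RPKM in SS and 1277 RPKM in CTRL, a log2 ratio of 0.29, and NR_10421 had 833 RPKM in SS and 711 RPKM in CTRL, a log2 ratio of 0.23. A further carbonic anhydrase unigene (NR_4857) had 971 RPKM in SS and 693 RPKM in CTRL, a log2 ratio of 0.48. Of the 17 unigenes tied in this way, glycerate kinase was the only one with a ratio under 1.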
